A study of Caenorhabditis elegans with 4 samples.

Results

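The 346 regions of chromosome X at which RNA polymerase II was called in late embryos of *Caenorhabditis elegans* are described here. They were all the rows that name X in the authors' combined list of 5364 regions, 6.45% of the list (exact 95% binomial interval 5.81 to 7.14%, counting error only). The other 5018 regions lie on the autosomes I to V and serve as background. Position was the rule by which the regions were chosen, so their number on X is a description, and widths, gaps and q-values were not used in the choice.

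The list comes from chromatin immunoprecipitation followed by sequencing (ChIP-seq), with 2 ChIP libraries set against 2 libraries of input chromatin, the fragmented DNA before immunoprecipitation. Both groups were wild-type hermaphrodite cultures of the laboratory strain N2, grown at 20 °C and taken 4.5 hours after the early embryo stage, with no treatment named. The sample titles number 2 extractions, and nothing in them says whether these came from separate cultures. The ChIP libraries were made, per the sample labels, with the mouse monoclonal antibody 8WG16 to the repeated tail of AMA-1, the largest subunit of the polymerase, whereas the shared protocol text names serum against GFP. Whole embryos were used, so the list averages over all cell types. It holds a q-value per region and no value per library, and the depth of the libraries is unknown. No spread between replicates exists for any value below and no test over samples could be run. Contrasts between X and autosomes are therefore given as values, with no test.

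RNA polymerase II transcribes protein-coding genes and many small RNA genes, and on active genes it is found from the promoter through the gene body. The antibody is known to prefer the unphosphorylated tail, the form in which the polymerase is recruited to promoters. Hermaphrodites of this species carry a pair of X chromosomes, and in their somatic cells a condensin-containing dosage compensation complex binds both and lowers transcription from them, starting in the embryo. The X chromosome is also known to be poor in operons, in genes expressed in the germ line and in broadly expressed genes.

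The main features of X were few regions, long empty stretches between them, and wide regions with comparatively large q-values for their width. Density was 19.7 regions per Mb on X and 61.0 on the autosomes. The median gap from a region to the next was 22.0 kb on X (exact binomial interval of the median 14.4 to 31.1 kb, n = 345 gaps) and 2.73 kb on the autosomes (2.54 to 2.95 kb, n = 5013 gaps). The median width was 674 bp on X (561 to 808 bp) and 417.5 bp on the autosomes (405 to 432 bp). These intervals treat regions as independent, although neighbouring regions can be pieces of the same stretch. All coordinates below are on build WS180.

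The first region on X began far from the left end. It lay at 325715 to 325939, was 225 bp wide and had a q-value of 0.00736, so that the first 325.7 kb held none. On the autosomes the first region began between 3.59 kb (I) and 98.8 kb (IV) from the left end. The last X region lay at 17600213 to 17601702, was 1490 bp wide and had a q-value of 4.36e-14. Its end was taken as the end of the chromosome's span of 17.6 Mb, because the chromosome lengths of that build were not used here.

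In 1-Mb segments, the number of X regions ranged from 12 to 34 over the 17 full segments, with a median of 18. The autosomes had 14 to 137 regions in 79 full segments, with a median of 60, and 11 of those segments held no more regions than the fullest X segment. The poorest X segment was the first, with 12 regions covering 7.55 kb. Only 1 of these 12 had a q-value of at most 0.001, which 65.5% of the whole list had, and none was as wide as 2000 bp. The first 1 Mb of the autosomes held 35 (V) to 72 (I) regions, of which 21 and 48 reached that q-value.

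The fullest X segment was the third, with 34 regions, of which 25 had a q-value of at most 0.001 and 13 lay in runs. Number and covered sequence followed each other in part along X, with exceptions. The fourth segment had 21 regions but the most covered bases, 34.4 kb, of which 10.2 kb came from a single region. The eleventh segment had 21 regions covering 32.9 kb, with the highest median width of the segments, 1158 bp. The ninth segment, near the centre, had 14 regions that covered 8.68 kb, and its widest region was 1431 bp. Over the 17 full segments, the Spearman correlation of region number with covered bases was 0.61, a description of segments of the same chromosome.

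**Figure D1:**
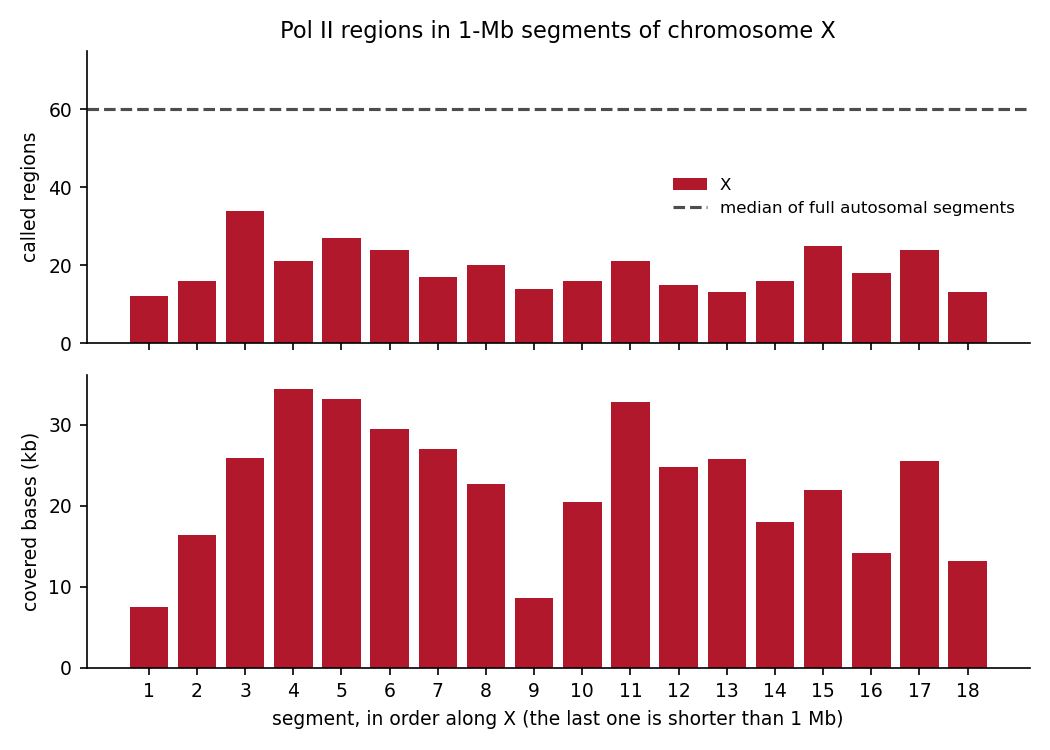
Called regions (top) and covered bases in kb (bottom) in successive 1-Mb segments of X, with the median count of full autosomal segments as a dashed line. No X segment exceeded 34 regions, the autosomal median was 60, and covered bases were lowest in segments 1 (7.55 kb) and 9 (8.68 kb).

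With X cut into 3 parts of equal length, the left part held 132 regions, or 38.2% (exact interval 33.0 to 43.5%), the middle part 103, or 29.8% (24.998 to 34.9%), and the right part 111, or 32.1% (27.2 to 37.3%). The interval of the left part includes an even spread. Regions were closest together in the left part, with a median gap of 15.7 kb, where the middle had 29.2 kb and the right part 20.0 kb. The left part also had the largest share of its regions in runs, 31.8%, compared with 15.5% for the middle part and 19.8% for the right. The middle part had fewer regions but 23 of 2000 bp or more, where the left had 15 and the right 14. Covered bases were therefore spread almost evenly over the left and middle parts, with 143.6 kb in the left, 139.8 kb in the middle and 119.1 kb in the right.

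X was sparsely and fairly evenly populated at the scale of 100 kb. Of its 177 windows of that size, 37 held no region, or 20.9% (exact interval 15.2 to 27.6%), 46 held 1, 38 held 2 and 25 held 3. Of the 825 autosomal windows, 82 were empty, or 9.94%. Windows with 5 or more regions made up 7.91% on X and 55.6% on the autosomes, and no X window held more than 8, where the fullest autosomal window held 28. The share of empty windows on X was close to the 20.1% on chromosome V, but the fullest window held 8 regions on X and 23 on V, and the median window 2 on X and 3 on V.

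The variance of the window counts was 1.45 times their mean on X and 2.66 (III) to 3.78 (V) times on single autosomes. That ratio grows with the mean where density varies from place to place. The excess of the variance over the mean, divided by the squared mean, was 0.23 on X, 0.23 on III, 0.26 on I and 0.72 on V. By the second measure X lay beside I and III, and V had the most uneven coverage. Counts in adjacent windows were nearly unrelated on X (Spearman rho = -0.06 over 176 pairs of the same chromosome). Single autosomes ranged from -0.04 (III) to 0.19 (V), with 0.04 on IV, 0.09 on I and 0.17 on II, so this was not particular to X.

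**Figure D2:**
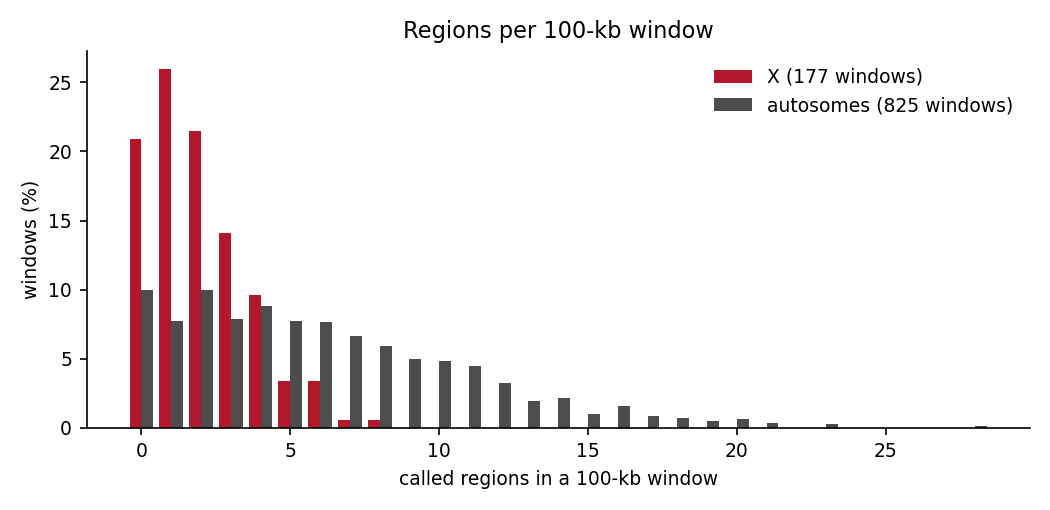
Share of 100-kb windows (vertical axis, %) by the number of called regions in the window, for X and for the autosomes together. The X windows are concentrated at 0 to 4 regions and end at 8, and the autosomal windows extend to 28.

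Of the 5 fullest X windows, 3 lay close together in the left part, between 2800001 and 4300000, and the other two in the middle and right parts. The window from 10500001 to 10600000 held 8 regions that covered 13.7 kb. It contained a run of 4 regions described below. The window from 4200001 to 4300000 followed with 7 regions over 8.70 kb. The windows from 3400001, 16900001 and 2800001, with 6 regions each, covered 11.6 kb, 6.29 kb and 4.28 kb. In all, 6 windows held 6 regions, and the order among them was set by covered bases.

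Empty stretches took up most of X. Gaps of 50 kb or more were 34.8% of the gaps on X, 120 of 345, and together took up 80.9% of its span. On the autosomes they were 9.02% of the gaps and took up 52.2% of the span. Single autosomes ranged from 36.7% (III) to 72.3% (V) of the span, with 58.7% on IV, so most of IV and V was also empty by this limit. Gaps of 100 kb or more numbered 53 on X and took up 52.3% of its span, against 24.9% of the autosomal span, with single autosomes from 11.2% (III) to 41.6% (V). Among the longest gaps of the whole list, X supplied 3 of the first 10 and V 6, X 11 of the first 25 and V 7, and each of them 16 of the first 50. Fewer regions per Mb also make gaps longer, and the part of this in the differences was not tested.

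The longest empty stretch on X was 443.2 kb (1521788 to 1965028), bordered by regions of 376 bp and 89 bp. The next was 408.0 kb (9517312 to 9925322), close to the centre of the chromosome. The third spanned 303.1 kb (12199969 to 12503059) and ended at a region of 7466 bp, the third widest on X. Stretches of 297.1 kb (15842786 to 16139903) and 296.8 kb (12846335 to 13143127) followed. The last of these ended at the region with the third smallest q-value on X. The remaining 5 of the 10 longest ran from 285.4 kb (8811416 to 9096855) down to 240.4 kb (17214850 to 17455244), with 255.4 kb (5219319 to 5474759), 245.5 kb (6820503 to 7065953) and 244.7 kb (8422325 to 8666980) between them. The 325.7 kb before the first region, not counted as a gap, would come after the second of these. The 10 stretches lay along the whole length of X. The 20 regions that bordered them had a median width of 545 bp, and 11 of the 20 had a q-value of at most 0.001. Of all X regions 57.8% had such a q-value, and of the whole list 65.5%. A gap shows that no region passed the authors' threshold there, and without depths it cannot be told from weak occupancy.

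Empty 100-kb windows were mostly single. The 37 windows formed 27 stretches, of which 21 were 1 window long, 2 were 2 windows long and 4 were 3 windows long. The stretches of 3 began at 1, 1600001, 9600001 and 12200001. With only the regions of a q-value of at most 0.001 kept, the longest empty stretch was 1010 kb at the left end (428820 to 1438704), and the list as deposited has 14 regions inside it.

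**Figure D3:**
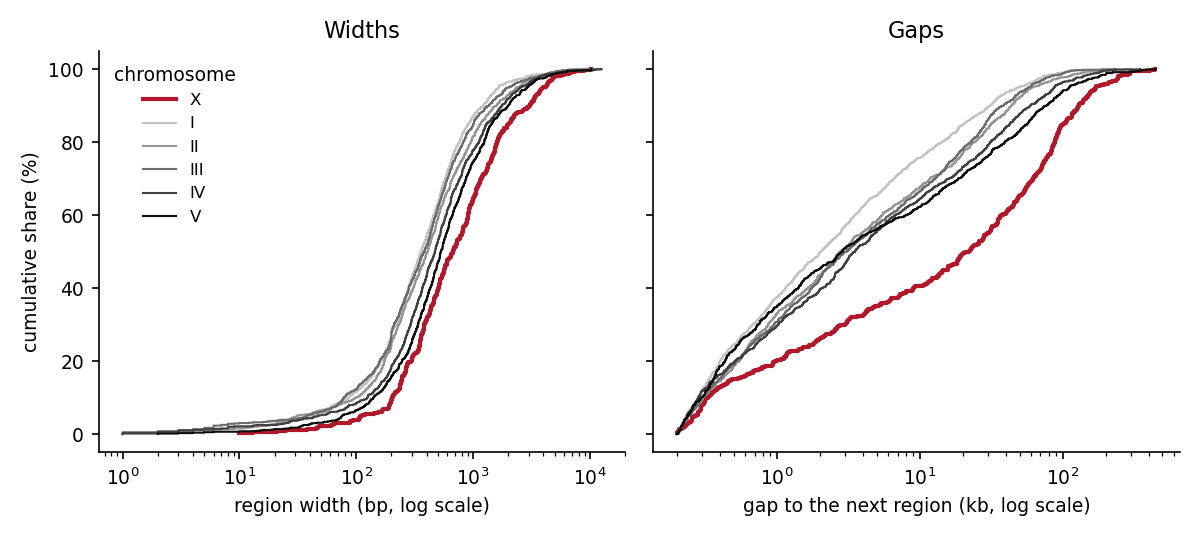
Cumulative share (%) of region widths in bp (left) and of gaps to the next region in kb (right) on X and on each autosome, on log axes. The X curve lies to the right of all autosomes at the median in both panels, and in the right panel the curves nearly meet at gaps below 0.5 kb.

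The contrast in gaps between X and the autosomes was largest in the middle of the distribution. The shortest 10% of gaps were at most 0.332 kb on X and 0.292 kb on the autosomes. At the lower quartile the values were 1.86 kb on X and 0.615 kb on the autosomes, a ratio of 3.02. The ratio of X to autosomes was 8.06 at the median, 4.45 at the upper quartile and 2.78 at the highest 10%. The longest gap, 443.2 kb on X, was close to the longest autosomal one, 449.6 kb on V. Gaps of at most 500 bp made up 15.1% of those on X and 21.2% on the autosomes, and gaps above 500 bp and up to 2000 bp made up 11.3% on X and 23.5% on the autosomes. No X gap was shorter than 201 bp and no autosomal gap shorter than 200 bp.

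Most X regions stood alone. When neighbours with at most 2000 bp between them were linked, 200 of the 346 regions, or 57.8% (exact interval 52.4 to 63.1%), had no linked neighbour. A further 66 formed 33 pairs, and 80, or 23.1% (18.8 to 27.9%), fell into 22 runs of 3 or more. On the autosomes 35.2% stood alone and 44.0% were in runs, with single autosomes from 36.4% (IV) to 51.3% (I) in runs. The largest X run had 6 regions, and the largest run of a single autosome had 9 (IV) to 16 (I and III). Fewer regions per Mb also leave fewer neighbours within any fixed distance, and the part of this in the difference was not tested.

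Linking turned the 346 X regions into 255 separate stretches, or 14.5 per Mb, against 2777 on the autosomes, or 33.7 per Mb. The ratio of X to autosomes was 0.429 for stretches and 0.322 for regions as listed. Counted as stretches, the median length was 815 bp on X, 628 bp on the autosomes together and 854 bp on V. X thus had wider regions than every single autosome as listed, but not longer linked stretches than V.

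The run with the most regions spanned 15.8 kb near the centre of X (9096856 to 9112637). Its 6 regions were 244 to 4496 bp wide, covered 66.5% of it and had q-values from 7.21e-16 to 0.00748. It began where the sixth longest empty stretch ended. The run of 5 regions spanned 7164 bp (2038741 to 2045904) and was covered to 52.6%, with a smallest q-value of 3.89e-13. Among the 9 runs of 4, the longest spanned 9293 bp (10567423 to 10576715), was covered to 78.8% and lay in the fullest window of X. The next spanned 8568 bp (4209117 to 4217684) and was covered to 70.3%, also in the window second in number. The last of the 5 spanned 7977 bp (2697359 to 2705335), and its 4 regions of 1077 to 2191 bp covered 80.3% of it. Its q-values, from 1.85e-38 to 3.89e-06, were all at most 0.001.

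The 22 runs were 3067 to 15782 bp long with a median of 6830 bp, and their regions covered 50.3 to 95.9% of them. Each had at least 1 region with a q-value of at most 0.001. Of all regions in runs, 71.25% on X and 70.9% on the autosomes had such a q-value, where the whole list had 65.5%. A region of 2000 bp or more was present in 12 of the 22 runs. A single broad region dominated some of them. The run from 3115877 to 3128218, with 3 regions, was covered to 95.9% and held the widest X region.

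Regions in runs were wider than those standing alone. The median width was 1012 bp in runs, 735.5 bp in pairs and 524 bp for single regions. The same order held on the autosomes, at 509.5, 426 and 329 bp. The median q-value was 1.96e-05 in runs on X, 7.62e-05 in pairs and 0.000955 for single regions. On the autosomes it was 4.25e-05, 0.00013 and 0.000369, so X had the larger median among single regions only. Single regions still held 47.3% of the covered bases of X, runs 28.7% and pairs 24.0%. Width fell with the distance to the nearer neighbour with a Spearman rho of -0.25 over the 346 regions, a weak relation among regions of the same chromosome.

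**Figure D4:**
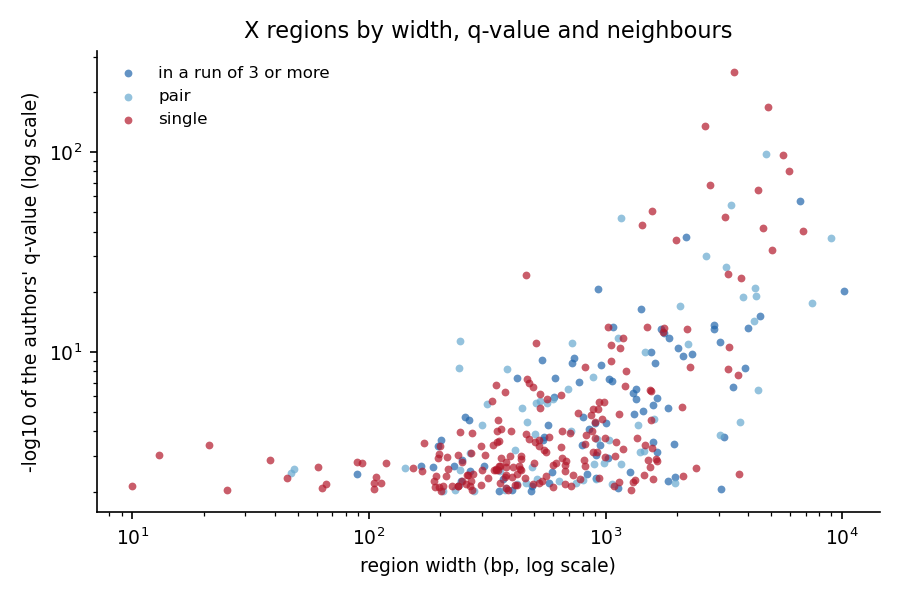
Width in bp (horizontal, log scale) and −log10 of the authors' q-value (vertical, log scale) of the 346 X regions, coloured by whether a region was in a run, in a pair or single. Single regions made up 7 of the 10 smallest q-values and 57.8% of all X regions.

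Isolated regions, with at least 50 kb free of regions on each side, numbered 38 on X, or 11.0% (exact interval 7.89 to 14.8%), and 61 on the autosomes, or 1.22%. Single autosomes ranged from 0.433% (I) to 3.82% (V), and V alone held 31 of the 61. Fewer regions per Mb also leave more regions far from any neighbour, and the part of this in the difference was not tested. X held 38.4% of all isolated regions in the list. Their median width was 462.5 bp on X and 349 bp on the autosomes. Of the 38 on X, 21 or 55.3% had a q-value of at most 0.001, near the 57.8% of all X regions. That share was 60.7% for isolated autosomal regions and 65.5% for the whole list. On X, 3 of the 38 isolated regions were 2000 bp or wider, a smaller share than the 49 of 308 among the other X regions. Of all X regions 15.03% were that wide. The most isolated lay at 12845809 to 12846334, 150.8 kb from its nearer neighbour, with a width of 526 bp and a q-value of 6.93e-07. Next came 171 bp at 11803677 to 11803847, with 125.8 kb free and a q-value of 0.000327, and 215 bp at 13396571 to 13396785, with 125.0 kb free and a q-value of 0.00258. A 1550 bp region at 3787362 to 3788911 had 114.3 kb to its nearer neighbour and a q-value of 4.35e-07. The last of the 5 lay at 596304 to 596682, in the sparse left end, 106.6 kb away and with a q-value of 0.00370. The isolated regions thus included both regions near the threshold and regions far below it.

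X regions were wider at each of the 5 points of the distribution compared, from the narrowest 10% to the widest 10%. Regions of 5000 bp or more were 2.31% on X and 1.10% on the autosomes. The single widest region was 10191 bp on X, and the widest of each autosome was between 10312 bp (V) and 12568 bp (IV). A largest value can rise with the number of regions. X had 346, and single autosomes had 812 (V) to 1385 (I). The narrowest 10% were at most 203 bp on X and 98 bp on the autosomes, the quartiles were 351 and 1428 bp on X and 208 and 782 bp on the autosomes, and the widest 10% began at 3044.5 bp on X and 1505 bp on the autosomes. The ratio of X to autosomes lay between 1.61 at the median and 2.07 at the lowest 10%. Each single autosome had a smaller median, up to 530.5 bp on V. Regions under 100 bp were 4.05% of the X list and 10.1% of the autosomal list. Regions of 2000 bp or more were 15.03% on X (52 regions, exact interval 11.4 to 19.2%) and 6.38% on the autosomes. Single autosomes ranged from 3.54% (I) to 10.1% (V).

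A minority of regions carried much of the covered sequence, on X as on the autosomes. All 346 X regions covered 402.4 kb, or 2.29% of the span, against 4.27% on the autosomes. The 52 regions of 2000 bp or more held 49.8% of the covered bases on X and those on the autosomes 33.0%, from 24.9% (I) to 39.7% (V). By rank the direction was the other way. The widest 10% of regions held 39.6% of the covered bases on X and 41.9% on the autosomes, with single autosomes from 39.5% (V) to 42.6% (III). In the class of 2000 to below 5000 bp, 44 X regions held 35.7% of the covered bases of X, against 22.1% for that class on the autosomes.

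**Figure D5:**
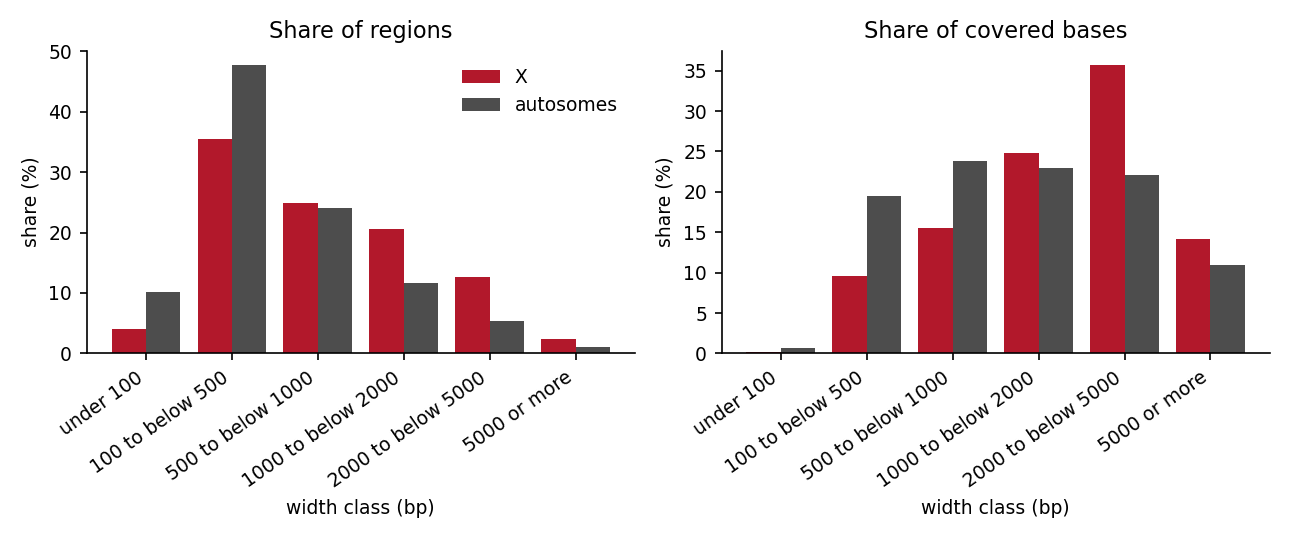
Share of regions (left, %) and of covered bases (right, %) by width class in bp, for X and for the autosomes together. On X, classes from 1000 bp upward hold larger shares of regions and of bases than on the autosomes, and regions of 100 to below 500 bp smaller shares.

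The 10 widest X regions ranged from 4763 to 10191 bp. The widest, at 3115877 to 3126067, had a q-value of 7.11e-21 and ranked 9 in the list by width but 412 by q-value. Next were regions of 8990 bp (11032552 to 11041541, q-value 7.90e-38) and 7466 bp (12503060 to 12510525, q-value 2.30e-18). Regions of 6829 bp (16611520 to 16618348), 6654 bp (5478864 to 5485517), 5981 bp (6617000 to 6622980), 5643 bp (12167772 to 12173414) and 5050 bp (3903220 to 3908269) followed. At the other end, the narrowest were 10 bp (12004843 to 12004852), 13 bp (13749360 to 13749372) and 21 bp (2447695 to 2447715), with q-values of 0.00750, 0.000903 and 0.000369.

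The 10 X regions with the smallest q-values were all at least 2632 bp wide, with a median of 4579 bp, and 5 of them were also among the 10 widest. The first lay at 12691487 to 12694980, was 3494 bp wide and had a q-value of 6.83e-253, the second smallest in the list. It stood alone, 26.2 kb from the region on its left and 150.8 kb from the region on its right. That neighbour on the right is the most isolated region of X. The 4859 bp region at 4960217 to 4965075 followed with 9.40e-169 and the 2632 bp region at 13143128 to 13145759 with 2.89e-136. The next in order were 4763 bp (1442364 to 1447126, q-value 5.91e-99) and 5643 bp (12167772 to 12173414, q-value 3.09e-97) wide. Then came the 5981 bp region named above (q-value 8.63e-81), the stretch of 2755 bp at 6252143 to 6254897 (4.19e-69) and that of 4395 bp at 11602969 to 11607363 (5.47e-65). The 6654 bp region above (7.37e-58) and that of 3397 bp at 16940087 to 16943483 (7.34e-55) closed the 10. Of these, 7 were single, 2 were in pairs and 1 was in a run, and 3 lay in the left part of X, 3 in the middle and 4 in the right. Single regions were 57.8% of all X regions.

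Of the X regions, 200 or 57.8% had a q-value of 0.001 or less, where the share over the whole list was 65.5% and that on the autosomes 66.1%. For single regions the share was 50.5% on X and 59.3% on the autosomes, and for pairs 63.6% and 67.1%. In runs it was 71.25% on X and 70.9% on the autosomes. At a q-value of at most 1e-10 the X share, 59 regions or 17.1%, was at the share over the whole list, 17.1%. X regions were thus less often at intermediate q-values and about as often at very small ones. In the list ranked by width, X supplied 17 of the first 100 and 121 of the first 1000 regions. Ranked by q-value, it supplied 7 of the first 100 and 63 of the first 1000, near its 6.45% of the list.

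Within a width class, X regions had larger q-values. From 500 to below 1000 bp the median q-value was 0.000207 on X (86 regions) and 3.54e-06 on the autosomes (1210 regions). From 1000 to below 2000 bp it was 1.33e-05 on X (71 regions) and 1.96e-10 on the autosomes (588 regions), and 73.2% on X and 93.2% on the autosomes were at most 0.001. Between 2000 and 5000 bp it was 8.78e-14 on X (44 regions) and 8.03e-28 on the autosomes (265 regions). In all 5 classes from 100 bp upward, the median −log10 q-value of X was below that of each of the 5 autosomes. The nearest autosome was IV in the classes below 2000 bp and V above. In the class of 1000 to below 2000 bp the median −log10 q-value was 4.87 on X, against 6.60 on IV. Under 100 bp the medians were 2.54 on X, from 14 regions, and 2.54 on the autosomes. In that class 14.3% of the regions on X and 28.2% on the autosomes had a q-value of at most 0.001. A q-value depends on read number and on the input level as well as on enrichment. Their parts in the difference were not tested.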

How the data were processed

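Both ChIP and both input libraries enter 1 combined list. Build WS180 of WormBase is named per the file headers, and every row gives PeakSeq, which scores ChIP tags over input, as its source. The authors' deposited value is a q-value per region, a p-value corrected for multiple testing, of at most 0.00998. Each row writes a q-value both in its score field and in its attribute field, exactly equal in 2413 of the 5364 rows. The score field was used here, and the size of the differences in the other rows was not measured. How replicates were joined, the aligner, the caller's settings and the depth are not given in the sources used here.

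Widths and gaps were computed from 1-based starts and ends, windows of 100 kb and segments of 1 Mb were filled by midpoint, runs linked neighbours with gaps of at most 2000 bp, and a span ended at the last region. Intervals are exact 95% binomial (Clopper-Pearson, and order statistics for medians). The functions were tested on simulated data. Regions were named by rank: the 10 smallest q-values, 10 widest, 3 narrowest, first and last, 10 longest gaps, and 5 fullest windows, runs and isolated regions. Runs, windows or regions beyond these were named after their values were seen. Members, limits and rules were chosen with earlier results of these data known. The gene table at hand is of another build, so no region was given a gene or a sequence. Alternatives varied the q-value limit, merging, minimum width, window, run and isolation limits. Computation used pandas 2.3.3 and scipy 1.17.1 with numpy 2.4.6 under Python 3.11.15, and plots used matplotlib 3.10.9.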

Additional observations from a re-analysis of the deposited data

How the results depend on the processing

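Joining neighbours within 2000 bp was chosen after seeing the data. X stayed below every autosome in regions per Mb, and above every autosome in median gap, under all 5 changes of the list and that joining. Its median width stayed above every autosome except under that joining, which gave 815 bp on X and 854 bp on V and a density ratio of 0.429. The left part of X held 37.0 to 41.2% of regions under the 5 changes of the list and 35.7% of covered bases, inside the interval of the main value.

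With a q-value of at most 0.001 there were 200 X regions (5.69% of the list, density ratio 0.282), with a median width of 1001.5 bp, 59.5% of bases in regions of 2000 bp or more, a median gap of 43.5 kb, 18.5% in runs, 40.7% of windows empty and a longest empty stretch of 1010 kb. With the 50% smallest q-values there were 148 (5.52%, ratio 0.273), 1197 bp, 66.4%, 65.9 kb, 16.2%, 52.0% and 1014 kb. Fewer regions lengthen gaps by construction. Merging below 500 bp gave 61.4% of bases in such broad regions and a median gap of 34.5 kb, and merging below 1000 bp gave 65.2%, 38.3 kb, 7.64% of the list and a ratio of 0.387. By covered bases X held 10.3% (ratio 0.535). Without regions under 100 bp the longest empty stretch was 474.5 kb. Linking at 1000 or 5000 bp put 15.9 or 32.7% in runs, windows of 50 or 200 kb were empty in 50.1 or 4.49%, and limits of 25 or 100 kb left 89 or 6 isolated regions. X had the larger median q-value in 83.3% of the 6 width classes and in 100% of 5 width quintiles. No paired analysis was possible because each region has a single value for both replicates, and leaving out a replicate was not possible for the same reason. With depth unknown, occupancy below the threshold was not measured.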
